A study of Homo sapiens with 6 samples.

Results

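Epithelial barrier transcription factors are DNA-binding proteins that switch on the genes of cell junctions, of keratinised layers and of surface enzymes. The Grainyhead-like factors GRHL1, GRHL2 and GRHL3 bind a shared site near genes of adherens and tight junctions and of the cornified layer. OVOL1 and OVOL2 are zinc finger repressors known to hold back the mesenchymal factors of the ZEB and SNAI families. ELF3 and EHF are epithelial members of the ETS family. TP63 encodes p63, the master regulator of basal cells in stratified epithelia. ZNF750 acts downstream of p63 in terminal differentiation, and PRDM1, also called BLIMP1, is a repressor that marks granular keratinocytes, sebocytes and plasma cells. In the stomach and intestine, ELF3 and EHF are abundant in glandular cells, while p63 belongs to squamous tissue.

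These 10 genes were chosen by name, with earlier results of these data known, as protein-coding genes of the deposited table. All 10 of them were found among its 58735 genes. RNA sequencing was available for NCI-N87 cells, an established gastric cancer line with an amplified ERBB2 receptor gene. The 3 shCtrl libraries came from cells that carry the empty control lentivirus, and the 3 shS1#1 libraries from cells that carry a lentiviral shRNA to SCAMP1, a membrane protein of endocytic and secretory vesicles; their labels read shNC and shScamp1. Both populations were selected with 2 μg/ml puromycin, kept as stable pools and harvested at about 80% confluence. A single shRNA was sequenced. The labels call the libraries biological replicates and do not say whether they came from separate infections, so p-values measure the spread between these libraries, which may be in part technical.

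The targeted gene followed the labels. SCAMP1 was measured at 12.6, 12.1 and 11.5 FPKM (fragments per kilobase of gene length, scaled to sequencing depth) in shCtrl and at 1.70, 1.37 and 1.99 FPKM in shS1#1 (log2 fold change -2.78, SE 0.14, limma adjusted p = 0.000248). The libraries held 14311769 to 15988700 reads on genes. shS1#1 replicate 2 stood apart: its mitochondrial share was 9.21% of reads against 6.09% to 6.78% in the others. Its reads differed from those of replicates 1 and 3 by a chi-square of 44.1 and 34.5 per degree of freedom, against 3.10 between replicates 1 and 3 and 1.97 to 2.58 among shCtrl libraries. Epithelial markers were high in every library (EPCAM from 141 to 156 FPKM). KRT8 and KRT18, the keratins of simple epithelia, were called higher in shS1#1, and 4 of the 5 epithelial markers were (KRT18 log2 fold change 1.19, KRT8 0.97). Summed fibroblast markers reached 0.487 to 0.773 FPKM in the 6 libraries with 4 of the 6 genes at 0 throughout, and leukocyte markers summed to 0.337 to 0.656 FPKM. The 3 endothelial markers summed to 0.139 to 0.235 FPKM in shCtrl and 0.381 to 0.612 FPKM in shS1#1, and their part in the results was not tested. In bulk RNA, more cells with a transcript and more transcript per cell cannot be told apart.

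Of the 10 factors, 8 passed the filter of a mean of 0.5 FPKM, and TP63 and ZNF750 did not. A gene was called where the limma p, adjusted over all 15556 genes tested, was under 0.05. GRHL3, OVOL1, EHF and PRDM1 were called higher in shS1#1, none was called lower, and GRHL1, GRHL2, OVOL2 and ELF3 were not called. Among all genes tested, 14.0% were called, 8.82% as higher and 5.17% as lower. Among the 922 tested genes that the table assigns to a transcription factor family, 8.35% were called higher and 5.75% lower. GRHL3 and PRDM1 also passed a log2 fold change of 1, the fold change threshold of the study for a differentially expressed gene. Of all genes tested, 3.16% passed an absolute log2 fold change of 1 together with the adjusted p used here. The paper pairs its threshold with a P under 0.05 and does not say whether that was adjusted. The groups did not overlap for 7 of the 8 factors, against 41.4% of all genes. The median log2 fold change was 0.60 over the 8 factors, -0.022 over all genes tested and 0.013 over the genes with a factor family. Because the factors were chosen with earlier results of these data known, these comparisons describe the panel and do not test it. Library totals rather than the scaling of the deposited values changed the share of higher genes among all calls from 63% to 47.3%, and the same 4 factors were called with either.

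**Figure D1:**
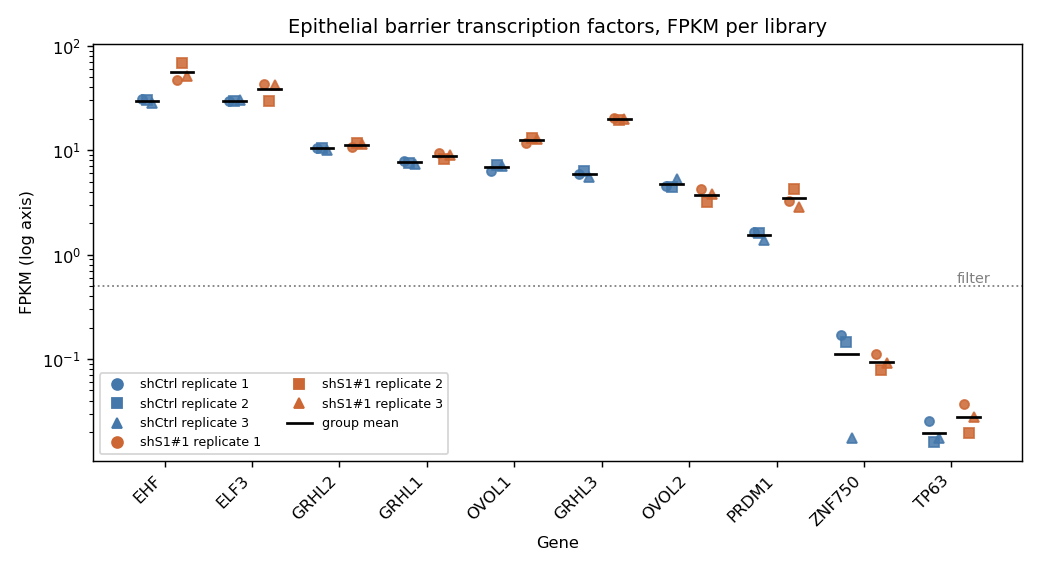
FPKM of the 10 factors (log axis) in the 3 shCtrl libraries (blue) and the 3 shS1#1 libraries (orange), ordered by the shCtrl mean, with a black line at each group mean and a dotted line at the filter of 0.5 FPKM. GRHL3 rose from about the level of OVOL1 to 19.3 to 20.5 FPKM, and TP63 and ZNF750 lie far under the filter in all 6 libraries.

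GRHL3 showed the largest difference of the 10 genes. GRHL3 (ENSG00000158055, chr1:24319322-24364482, plus strand, coordinates of hg38) is the Grainyhead-like factor of epidermal barrier formation and wound closure. It was measured at 5.95, 6.38 and 5.49 FPKM in shCtrl and at 20.5, 19.3 and 19.8 FPKM in shS1#1, from 334 to 1180 reads. Every shS1#1 library exceeded every shCtrl library, and the 3 libraries within each group lay close together. The means were 5.94 ± 0.447 and 19.9 ± 0.605 FPKM (SD, n = 3 each), a ratio of 3.34. The log2 fold change of GRHL3, on the log2(FPKM + 0.1) scale used throughout, was 1.73 (SE 0.08, 95% interval 1.54 to 1.91, limma adjusted p = 0.000192). Among the 922 genes with a factor family its log2 fold change ranked 1, and it ranked 205 among all 15556 genes. The next factor, the interferon regulatory factor IRF7, named after its values were seen, had a log2 fold change of 1.42. GRHL3 kept rank 1 under 15 of 16 alternative analyses and held rank 2 without a filter on low values. An exact permutation test of 3 against 3 libraries cannot give a two-sided p under 0.1, and it gave 0.1 for GRHL3 and for each of the other factors whose groups did not overlap.

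The 250 bases before the first RefSeq start of GRHL3 (GRCh38.p14, chr1:24319107-24319356, plus strand) are shown because this gene moved most, with a CACCTG E-box, the letters that SNAI and ZEB repressors bind, in capitals 21 bases before the start.
GRHL3 promoter: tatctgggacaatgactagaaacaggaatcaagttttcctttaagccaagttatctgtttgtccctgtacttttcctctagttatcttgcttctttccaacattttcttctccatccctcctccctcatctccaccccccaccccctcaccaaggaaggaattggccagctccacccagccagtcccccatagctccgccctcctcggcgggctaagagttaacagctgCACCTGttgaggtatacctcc
RefSeq promoter entries matched 6 of the 10 factors: GRHL1, GRHL3, ELF3, EHF, TP63 and PRDM1. Both strands of each window were searched for 7 motifs, and the share of all 34943 windows of this length that hold each was 17.5% for CACCTG, 6.59% for the AP-1 site TGANTCA, 14.5% for the ETS site CCGGAA, 1.49% for the Grainyhead site AACNGGTT, 2.45% for the OVOL site CCGTTA, 3.02% for the interferon-stimulated response element and 0.155% for the PRDM1 site, of which every match also matches that element. The windows of the 6 factors held CACCTG in GRHL3, ELF3 and PRDM1 and TGANTCA in PRDM1, and none of the other 5 motifs was matched in them. A match of letters is a description and not a site shown to be bound.

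GRHL1 and GRHL2 changed little beside GRHL3. GRHL2 (ENSG00000083307, chr8:101492432-101669726, plus strand), a regulator of E-cadherin and claudin genes in simple epithelia, was measured at 10.6, 10.4 and 10.1 FPKM in shCtrl and at 10.7, 11.8 and 11.6 FPKM in shS1#1. The lowest shS1#1 library of GRHL2 lay just over the highest shCtrl library. Its log2 fold change was 0.12 (SE 0.07, 95% interval -0.04 to 0.28, limma adjusted p = 0.271), and no alternative called it. GRHL1 (ENSG00000134317, chr2:9951693-10002277, plus strand), known for desmosomal cadherin genes, was measured at 7.88, 7.61 and 7.43 FPKM in shCtrl and at 9.44, 8.21 and 8.96 FPKM in shS1#1. The groups of GRHL1 did not overlap, with shS1#1 replicate 2 nearest to the shCtrl libraries. A log2 fold change of 0.21 was fitted for GRHL1 (SE 0.08, 95% interval 0.03 to 0.39, limma adjusted p = 0.12). Without shS1#1 replicate 2 it was 0.26 and was called (adjusted p = 0.016).

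The make-up of the Grainyhead-like family differed between the groups. The ratio of GRHL3 to GRHL2 was 0.559, 0.611 and 0.541 in shCtrl and 1.92, 1.64 and 1.71 in shS1#1. GRHL3 was thus the lower of this pair in every shCtrl library and the higher in every shS1#1 library. The ratio of GRHL3 to GRHL1 ran from 0.738 to 0.838 in shCtrl and from 2.17 to 2.35 in shS1#1, whereas the ratio of GRHL1 to GRHL2 overlapped between the groups (0.729 to 0.740 against 0.699 to 0.882). The summed level of the 3 genes was 24.0 ± 0.811 FPKM in shCtrl and 40.1 ± 0.723 FPKM in shS1#1 (SD, n = 3 each). GRHL3 made up 24.7% ± 1.21 of that sum in shCtrl and 49.6% ± 0.764 in shS1#1. The log2 ratio of GRHL3 to GRHL2 differed by 1.62 between the groups, that of GRHL3 to GRHL1 by 1.53 and that of GRHL1 to GRHL2 by 0.09. Over the 5 family pairs compared, the exact two-sided permutation p of each was 0.1, or 0.125 after Benjamini-Hochberg adjustment, except GRHL1 to GRHL2 with p = 0.5 before and after adjustment.

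**Figure D2:**
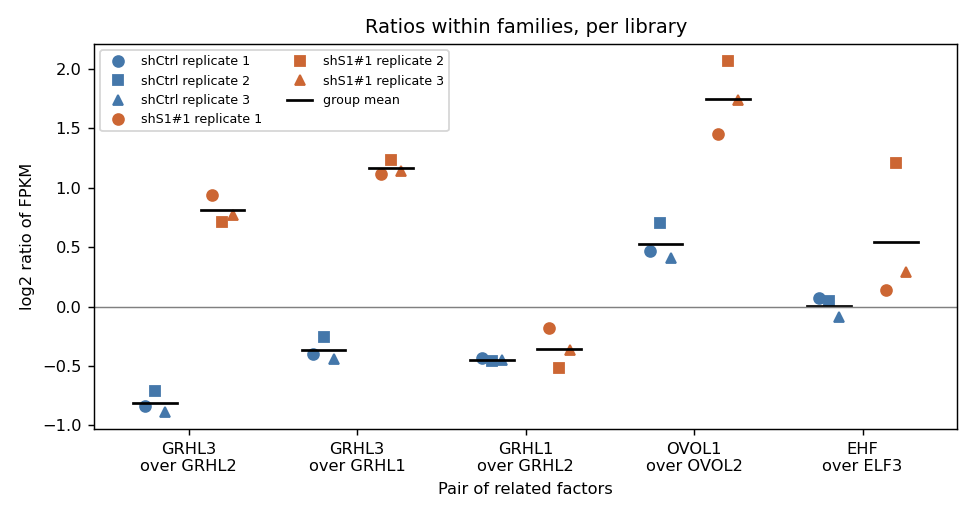
Log2 ratio of FPKM for 5 pairs of related factors in each library, with a black line at each group mean. The pairs with GRHL3 moved from under 0 in all shCtrl libraries to over 0 in all shS1#1 libraries, OVOL1 over OVOL2 lay over 0 in all libraries and higher in shS1#1, GRHL1 over GRHL2 overlapped, and EHF over ELF3 was spread by shS1#1 replicate 2.

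The OVOL pair moved apart. OVOL1 (ENSG00000172818, chr11:65787022-65797219, plus strand), which in epidermis accompanies the exit of progenitors from the cell cycle, was measured at 6.32, 7.25 and 7.08 FPKM in shCtrl and at 11.7, 13.2 and 12.7 FPKM in shS1#1. Its groups were well separated, at 6.89 ± 0.493 and 12.5 ± 0.755 FPKM (SD, n = 3 each), a ratio of 1.82. The log2 fold change of OVOL1 was 0.85 (SE 0.08, 95% interval 0.65 to 1.06, limma adjusted p = 0.00206), and each of the 16 alternatives called it. OVOL2 (ENSG00000125850, chr20:17956979-18059188, minus strand), the paralog that represses ZEB1 in simple epithelia, was measured at 4.58, 4.44 and 5.33 FPKM in shCtrl and at 4.28, 3.16 and 3.80 FPKM in shS1#1, from 94 to 179 reads. It was the single tested factor with a lower mean in shS1#1, and its groups did not overlap, although they lay close. The log2 fold change of OVOL2 was -0.35 (SE 0.13, 95% interval -0.67 to -0.03, limma adjusted p = 0.136), and no alternative called it, with values from -0.45 to -0.24. The ratio of OVOL1 to OVOL2 was 1.38, 1.63 and 1.33 in shCtrl and 2.73, 4.18 and 3.33 in shS1#1. OVOL1 made up 59.0% ± 2.63 of the summed level in shCtrl and 76.9% ± 3.73 in shS1#1. The log2 ratio differed by 1.22 between the groups (exact permutation p = 0.1, n = 3 each). Of the exon bases of OVOL1, 27.1% are shared with the antisense gene AP001266.1, which was listed at 0 in all libraries. Whether counting used strand is not given in the sources used here.

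The ETS factors EHF and ELF3 had the highest levels of the 10 genes, and shS1#1 replicate 2 set them apart from each other. EHF (ENSG00000135373, chr11:34621093-34661057, plus strand), an ETS factor of glandular and stratified epithelia, was measured at 31.0, 30.5 and 28.2 FPKM in shCtrl and at 46.9, 68.7 and 51.8 FPKM in shS1#1. All shS1#1 libraries lay over the shCtrl libraries, and replicate 2 was the highest. The means were 29.9 ± 1.47 and 55.8 ± 11.5 FPKM (SD, n = 3 each), a ratio of 1.87. With all 6 libraries the log2 fold change of EHF was 0.88 (SE 0.15, 95% interval 0.53 to 1.23, limma adjusted p = 0.0128). Without shS1#1 replicate 2 it was 0.72 and still called (adjusted p = 0.00114). Leaving out shCtrl replicate 1, 2 or 3 ended the call, with adjusted p of 0.0559, 0.0585 and 0.0641.

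ELF3 (ENSG00000163435, chr1:202007945-202017188, plus strand), an ETS factor of gastric and intestinal differentiation, was measured at 29.4, 29.7 and 30.0 FPKM in shCtrl and at 42.7, 29.7 and 42.5 FPKM in shS1#1. Replicates 1 and 3 of shS1#1 lay above all shCtrl libraries, and replicate 2 lay among them. A log2 fold change of 0.35 was fitted for ELF3 (SE 0.15, 95% interval -0.01 to 0.70, limma adjusted p = 0.174), and the exact permutation p was 0.3 (n = 3 each). Without shS1#1 replicate 2 it was 0.52 with an adjusted p of 0.00035. Of the exon bases of ELF3, 18.5% are shared with another gene, among them the antisense ELF3-AS1, at 2.38 to 4.38 FPKM, and AL691482.3 on the same strand, at 1.26 to 2.49 FPKM. The ratio of EHF to ELF3 was 1.05, 1.03 and 0.941 in shCtrl and 1.10, 2.31 and 1.22 in shS1#1. The ratios thus lay near 1 in all libraries but shS1#1 replicate 2. Their summed level was 59.6 ± 1.19 FPKM in shCtrl and 94.1 ± 4.43 FPKM in shS1#1 (SD, n = 3 each), with less spread than either gene alone in shS1#1.

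The 250 bases before the RefSeq start of ELF3 (chr1:202010337-202010586, plus strand) and before the first RefSeq start of EHF (chr11:34624007-34624256, plus strand), both in GRCh38.p14, are set beside each other because this pair had like levels in shCtrl. The capitals mark CACCTG, 120 bases before the start of ELF3, and the EHF window matched none of the 7 motifs.
ELF3 promoter: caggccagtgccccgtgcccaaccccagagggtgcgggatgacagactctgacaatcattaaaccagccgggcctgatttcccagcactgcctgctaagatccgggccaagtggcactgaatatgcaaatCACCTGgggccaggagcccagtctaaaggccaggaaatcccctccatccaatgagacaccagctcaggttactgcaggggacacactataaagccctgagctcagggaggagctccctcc
EHF promoter: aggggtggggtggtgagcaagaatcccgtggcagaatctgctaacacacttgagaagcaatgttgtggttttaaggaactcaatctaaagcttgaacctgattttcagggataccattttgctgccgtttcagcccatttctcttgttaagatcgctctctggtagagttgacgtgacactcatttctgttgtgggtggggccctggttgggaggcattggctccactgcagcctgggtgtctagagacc

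shS1#1 replicate 2 deviated from the mean of the other shS1#1 libraries in opposite directions for different factors. On the log2 scale its deviation was 0.49 for PRDM1, 0.48 for EHF, -0.34 for OVOL2 and -0.52 for ELF3, and it was -0.16 for GRHL1, 0.11 for OVOL1, 0.08 for GRHL2 and -0.06 for GRHL3. The GC content of the longest transcript of each gene, coding or not, was 42.3% for EHF and 45.7% for PRDM1. It was 57.7% for OVOL2, 56.0% for ELF3, 42.3% for GRHL1, 58.3% for OVOL1, 49.8% for GRHL2 and 52.1% for GRHL3. The Spearman correlation of a library's deviation with GC content across 15549 genes, which are not independent replicates, was -0.19 for shS1#1 replicate 2 and between -0.23 and 0.30 for the other 5 libraries. With a trend on GC content and length removed from every library, an alternative added after seeing the data, the same 4 factors were called. The part of GC content and of the mitochondrial share in these deviations was not tested.

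**Figure D3:**
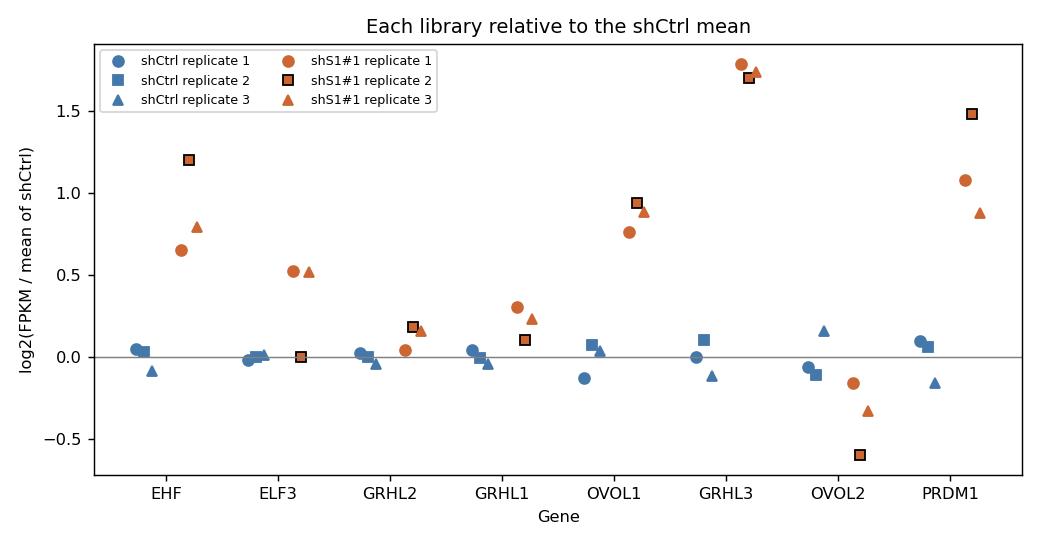
Log2 of FPKM over the shCtrl mean for the 8 factors tested, in each library, with shS1#1 replicate 2 outlined in black. That library lies highest for EHF and PRDM1, lowest for OVOL2 and at the shCtrl level for ELF3, and it lies with the other shS1#1 libraries for GRHL3.

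PRDM1 was the least abundant of the factors tested. PRDM1 (ENSG00000057657, chr6:106086320-106109939, plus strand) was measured at 1.65, 1.61 and 1.38 FPKM in shCtrl and at 3.25, 4.30 and 2.83 FPKM in shS1#1, from 136 to 376 reads. The groups did not overlap, and shS1#1 replicate 2 was the highest. The means were 1.54 ± 0.145 and 3.46 ± 0.755 FPKM (SD, n = 3 each), a ratio of 2.24. The log2 fold change of PRDM1 was 1.10 (SE 0.17, 95% interval 0.69 to 1.51, limma adjusted p = 0.0101), which ranked 9 among the 922 genes with a factor family. Without shS1#1 replicate 2 it was 0.93 and still called, but under a log2 fold change of 1. Without shCtrl replicate 3 the adjusted p was 0.0504. PRDM1 has 2 RefSeq starts in GRCh38.p14, with 250 bases before each shown because they matched different motifs. CAGGTG, the E-box on the minus strand, lies 90 bases before the first start (chr6:106086086-106086335), and the AP-1 site TGACTCA lies 42 bases before the second (chr6:106098691-106098940), both in capitals.
PRDM1 first start: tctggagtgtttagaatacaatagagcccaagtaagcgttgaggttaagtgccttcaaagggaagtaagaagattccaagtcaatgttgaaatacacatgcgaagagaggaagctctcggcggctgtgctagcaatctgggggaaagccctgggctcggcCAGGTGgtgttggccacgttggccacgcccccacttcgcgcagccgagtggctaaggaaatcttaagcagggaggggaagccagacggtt
PRDM1 second start: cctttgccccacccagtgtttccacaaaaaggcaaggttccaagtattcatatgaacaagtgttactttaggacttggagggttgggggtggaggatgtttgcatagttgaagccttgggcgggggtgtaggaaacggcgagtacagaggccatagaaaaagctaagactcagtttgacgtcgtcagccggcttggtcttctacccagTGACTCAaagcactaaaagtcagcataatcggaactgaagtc

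**Figure D4:**
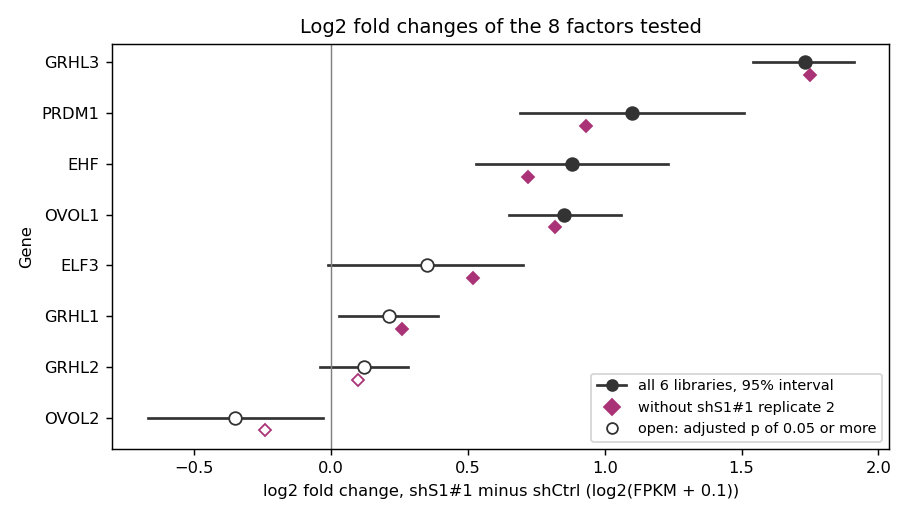
Log2 fold changes of the 8 factors tested, shS1#1 minus shCtrl, with 95% intervals (circles and lines) and the value without shS1#1 replicate 2 (diamonds), filled where the adjusted p is under 0.05. GRHL3 stands at 1.73 with a narrow interval, and leaving out the library turns ELF3 and GRHL1 to called while GRHL2 and OVOL2 keep open diamonds.

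TP63 and ZNF750 were at the limit of detection. TP63 (ENSG00000073282, chr3:189631416-189897279, plus strand) had 3, 2 and 2 reads in shCtrl and 4, 2 and 3 reads in shS1#1, or 0.0161 to 0.0367 FPKM. ZNF750 (ENSG00000141579, chr17:82829435-82840578, minus strand) had 10, 9 and 1 reads in shCtrl and 6, 4 and 5 reads in shS1#1, or 0.0174 to 0.17 FPKM. A difference between the groups was not detectable at this depth for either gene, and a fit without the filter, over 33572 genes, gave an adjusted p of 0.765 for TP63 and 0.983 for ZNF750. TP73, a relative of TP63, was measured at 1.18 to 1.60 FPKM over the 6 libraries (log2 fold change 0.05, adjusted p = 0.846). Gene-level values do not tell apart the forms of p63 or of the other factors.

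The order of the levels differed between the groups. By mean FPKM, shCtrl had EHF and ELF3 first, then GRHL2, GRHL1, OVOL1, GRHL3, OVOL2, PRDM1, ZNF750 and TP63, and the libraries of EHF and ELF3, of OVOL1 and GRHL3, and of ZNF750 and TP63 overlapped. In shS1#1 the order was EHF, ELF3, GRHL3, OVOL1, GRHL2, GRHL1, OVOL2, PRDM1, ZNF750 and TP63, with overlaps between OVOL1 and GRHL2 and between OVOL2 and PRDM1. GRHL3 thus moved from sixth to the third place. Against all genes tested, the mean over the 6 libraries stood at percentile 94.3 for EHF and 92.4 for ELF3, from 67.2 to 77.4 for the Grainyhead-like genes and OVOL1, at 50.6 for OVOL2 and at 37.5 for PRDM1. Gene length in the table is the union of all exons. Per length of the longest coding transcript, a choice added after seeing the data, GRHL1 passed GRHL2 in both groups (17.1 against 12.0 FPKM in shCtrl) and OVOL1 in shS1#1, and GRHL3 kept its place.

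Genes linked to these factors by textbook knowledge were followed in 7 lists, which were chosen with earlier results of these data known. In the list of epithelial genes linked to Grainyhead-like factors, 10 of 19 genes tested were higher, 1 was lower and 8 were not called. Of all genes tested, 8.82% were called higher and 5.17% lower. The median log2 fold change of the list was 0.33, against -0.022 for all genes. CGN, which encodes the tight junction protein cingulin, rose from 14.8 ± 0.666 to 30.1 ± 0.977 FPKM (log2 fold change 1.02). SPINT1, an inhibitor of the surface protease matriptase, rose from 50.7 ± 1.18 to 93.8 ± 6.85 FPKM (0.88), and PRSS8, the surface protease prostasin, had a log2 fold change of 0.76. ARHGEF19, a guanine nucleotide exchange factor linked to GRHL3 in planar cell polarity, fell from 8.10 ± 0.475 to 4.63 ± 0.379 FPKM (-0.79). All 16 alternatives called these 4 genes. The list had 11 calls, 5 without any 1 of the shCtrl libraries and 6 without shS1#1 replicate 3.

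The mesenchymal list, which OVOL and Grainyhead-like factors are known to oppose, was mostly not expressed. Of its 10 genes, 7 did not pass the filter and reached at most 0.346 FPKM in any library, ZEB1, ZEB2, SNAI2 and VIM among them. SNAI1 was measured at 2.88, 3.42 and 3.30 FPKM in shCtrl and at 2.27, 1.69 and 1.91 FPKM in shS1#1, and fell (log2 fold change -0.69, SE 0.13, adjusted p = 0.0214). TWIST1 fell from 5.48 ± 0.566 to 3.05 ± 0.624 FPKM (-0.84, SE 0.17, adjusted p = 0.022). FN1, which encodes fibronectin, had a log2 fold change of 0.63 and was not called (adjusted p = 0.071). Both calls were lost without any 1 of the shCtrl libraries or without shS1#1 replicate 3.

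Of the p63-linked basal genes, 9 of 17 tested were higher and 1 was lower, beside 8.82% and 5.17% of all genes. Their median log2 fold change was 0.54. The basal keratin genes KRT5 and KRT14 rose from 2.83 ± 0.371 to 7.25 ± 0.574 FPKM (1.33) and from 1.23 ± 0.236 to 2.67 ± 0.391 FPKM (1.06). The call of KRT14 was lost without shCtrl replicate 2 and without shS1#1 replicate 3. The calcium-binding S100A2 fell from 56.3 ± 3.09 to 27.1 ± 9.93 FPKM (-1.13), with 15.9 FPKM in shS1#1 replicate 2 and 30.8 to 34.7 FPKM in the other shS1#1 libraries, and 9 of 16 alternatives called it. The list had 10 calls, and 4 without any 1 of the shCtrl libraries or without shS1#1 replicate 3. KRT15, the third basal keratin of the markers, was not called (0.33, adjusted p = 0.283). TP63 itself had at most 4 reads in any library.

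Squamous differentiation genes showed the highest median of the 7 lists, 0.79. Of the 39 genes found, 22 were tested, 11 were higher, none was lower and 11 were not called. Among all genes tested, 8.82% were called higher and 5.17% lower. IVL, which encodes the cornified envelope protein involucrin, was measured at 79.9, 80.3 and 84.2 FPKM in shCtrl and at 344, 350 and 329 FPKM in shS1#1 (log2 fold change 2.07, SE 0.07, adjusted p = 0.000165). SPRR3, a small proline-rich envelope protein of wet squamous surfaces, was measured at 9.76, 10.4 and 9.75 FPKM in shCtrl and at 67.5, 48.3 and 59.2 FPKM in shS1#1 (log2 fold change 2.53, SE 0.13, adjusted p = 0.000248). KRT16, a keratin of activated keratinocytes, and SPRR1A, another envelope protein, rose by 1.46 and 1.39 on the log2 scale. The tested genes that were not called went both ways, from -0.86 for KRT10 (limma adjusted p = 0.343) to 1.68 for SPRR1B (limma adjusted p = 0.0605). CNFN, also not called, had a log2 fold change of -0.59. KRT10 and CNFN were lowest in shS1#1 replicate 2, at 9.06 and 3.76 FPKM. All 16 alternatives called IVL, SPRR3 and KRT16, and 9 of 16 called SPRR1A. The list had 11 calls, 6 to 7 without 1 of the shCtrl libraries and 6 without shS1#1 replicate 3. The 17 genes not tested include LOR, KRT1 and the calprotectin gene S100A8.

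**Figure D5:**
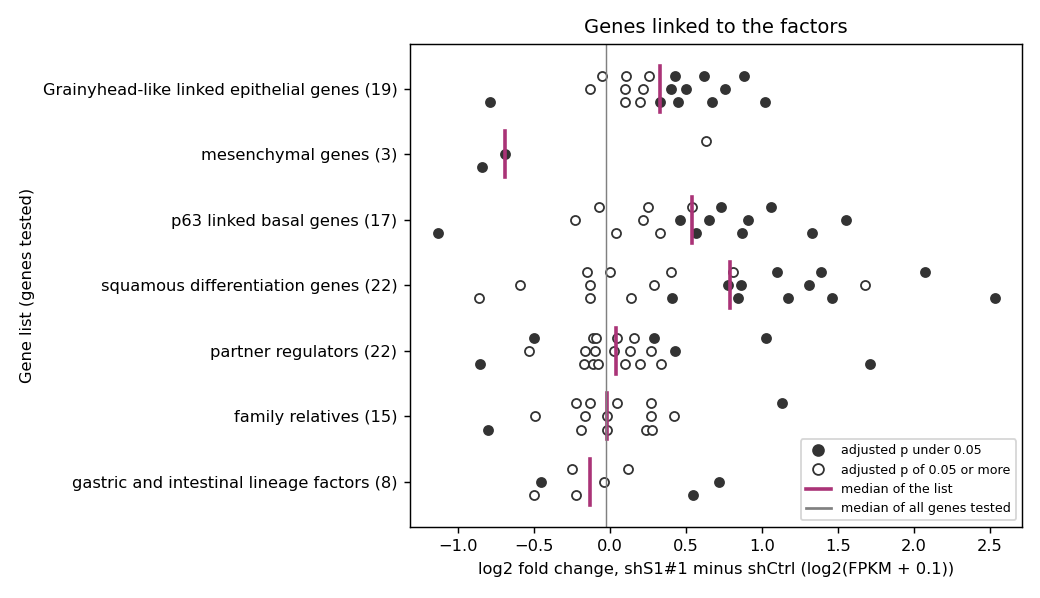
Log2 fold changes of the tested genes of 7 lists linked to the factors, shS1#1 minus shCtrl, filled where the adjusted p is under 0.05, with the median of each list (purple line) and of all genes tested (grey line). The medians of the epithelial, basal and squamous lists (0.33, 0.54 and 0.79) lie to the right of the median of all genes, that of the 3 mesenchymal genes lies to the left at -0.69, and those of the other lists lie between -0.13 and 0.04.

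Calls among the other regulators went both ways. Of 22 partner regulators tested, 4 were higher and 2 were lower, beside 8.82% and 5.17% of all genes, with a median log2 fold change of 0.04. RIPK4, a kinase of keratinocyte differentiation, was measured at 8.10, 7.26 and 7.91 FPKM in shCtrl and at 25.2, 26.4 and 25.2 FPKM in shS1#1 (log2 fold change 1.71, SE 0.07, adjusted p = 0.000168). PPARG, a nuclear receptor, rose by 0.43 on the log2 scale, whereas the factor CEBPA changed by -0.85 and the receptor NOTCH1 by -0.50, with 7 of 15 alternatives calling CEBPA and 8 of 16 calling NOTCH1. The partners not called include KLF4, KLF5 and KMT2D. Of 15 family relatives tested, the ETS gene ELF5 was higher (0.920 ± 0.168 to 2.12 ± 0.0867 FPKM, log2 fold change 1.13) and 1 gene was lower. The remaining 13 relatives, with ELF1, ELF2, ELF4, TFCP2 and UBP1 among them, were not called. Of 8 gastric and intestinal lineage factors tested, GATA6 (0.72) and FOXA1 (0.55) were higher and FOXA3 (-0.45) was lower, of which all 16 alternatives called GATA6, 11 called FOXA1 and 9 called FOXA3, while CDX2, HNF4A and SOX2 were not called.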

How the data were processed

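The deposited table holds FPKM, computed by the authors for each gene in each library. Per the submitters' processing notes the reads were handled with HISAT2 2.0.5, featureCounts 1.5.0-p3 and DESeq2 1.20.0 on hg38. FPKM times gene length gave whole reads for 100% of values above 0 (tolerance 0.01), and their totals showed that the authors had scaled libraries by size factors of 0.914 to 1.11.

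The 15556 genes whose mean reached 0.5 FPKM were fitted in R 4.3.3 with limma 3.58.1 (lmFit, eBayes with trend) on log2(FPKM + 0.1), two-sided, with Benjamini-Hochberg adjustment. Calls needed an adjusted p under 0.05. The fit was tested on simulated reads in which no library stood apart, so its behaviour with such a library was not tested there. Alternatives covered the pseudocount, filter, scaling, trend, biotype, voom on the recovered reads (2759 genes called), the replicate number as a block, each library left out and, added after seeing the data, a GC and length trend. Coordinates came from GENCODE 29 and promoters from RefSeq GRCh38.p14. Tables were made with Python 3.11.15, pandas 2.3.3, numpy 2.4.6 and scipy 1.17.1.

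The factors and lists were chosen with earlier results of these data known. Named genes are the 10 factors, SCAMP1, the markers, and per list up to 4 called genes with the largest absolute log2 fold change at a mean of at least 1 FPKM, with paralogs of a factor. A few genes that meet the rule are left out here. Any further gene was picked with its values in view.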

Additional observations from a re-analysis of the deposited data

How the results depend on the processing

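GRHL3, OVOL1 and SCAMP1 were called in all 16 alternatives, PRDM1 in 15 and EHF in 13; ELF3 and GRHL1 in 1 each, without shS1#1 replicate 2. No direction reversed. With a pseudocount of 1, 1 factor passed a log2 fold change of 1. No pairing by replicate number was visible, which does not settle whether the libraries were prepared in pairs. Deviations of same-numbered libraries from their group means correlated at -0.04, 0.03 and 0.07, and not every library correlated best with its own number. The replicate block called 958 genes against 2177 and kept the 4 factors, with 5 Grainyhead-like linked, 1 mesenchymal, 5 basal, 7 squamous, 1 partner and 1 gastric and intestinal gene called. Without a filter, 6 basal and 2 partner genes were called. Of the family relatives, 1 was called with a filter of 2 FPKM and 4 each with library totals, voom and the GC and length trend, which called 3377 genes. Leaving out 1 library gave 2 to 6 factors called, all higher, 1 to 2 of them past a log2 fold change of 1, and 817 to 4374 genes in all; by list, 5 to 13 Grainyhead-like linked, 0 to 3 mesenchymal, 4 to 11 basal, 6 to 13 squamous, 1 to 11 partner, 2 to 5 family and 1 to 5 gastric and intestinal genes. Most calls, 4374, were made without shS1#1 replicate 2. Why these counts moved was not tested. Depth limits TP63 and ZNF750.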

Other observations

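Genes with a transcription factor family that ranked after GRHL3 by log2 fold change, named after their values were seen, include 4 of other families. IRF7, a factor of the interferon response, was measured at 4.54, 5.09 and 4.68 FPKM in shCtrl and at 14.1, 12.4 and 12.2 FPKM in shS1#1 (log2 fold change 1.42, limma adjusted p = 0.000547). MXD1, a partner of MAX that opposes MYC, had 1.97 ± 0.0545 FPKM in shCtrl and 5.15 ± 0.164 FPKM in shS1#1 (SD, n = 3 each) and a log2 fold change of 1.34. FOXD1 had a log2 fold change of 1.35 and TSC22D3, a glucocorticoid-induced gene, one of 1.27. The groups of these 4 genes, picked for their rank, did not overlap, as was the case for 41.4% of all genes tested.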
